A study of Mus musculus with 62 samples.

Results

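The mast cell proteases and the chains of the high-affinity IgE receptor were followed as 10 genes, selected by symbol among the 35199 genes of a 1-month tissue table and the 34945 genes of a 5-day tissue table. The 10 genes are the chymases Mcpt1, Mcpt2, Mcpt4, Cma1 and Cma2, the tryptases Tpsab1 and Tpsb2, the carboxypeptidase Cpa3, and the receptor chains Fcer1a and Ms4a2. All 10 passed the filter on low values in both tables, which asked for a normalised count of at least 10 in 3 samples. They had been picked with their 1-month tissue values in view, so their 1-month differences are given as a description, with no test. Earlier results of these data were also known at that point, which limits the 5-day tests below.

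Poly-A RNA was sequenced from mouse bladders in 5 tissue groups. Basal bladder tumours were induced with BBN, a nitrosamine carcinogen, in mice labelled wild type. Tumour-bearing mice received rosiglitazone, which activates the nuclear receptor PPARG, together with the MEK inhibitor trametinib, or an aqueous vehicle with hydroxypropyl methylcellulose, Tween 80 and DMSO. The 1-month groups held 3 vehicle and 4 treated tumours, the 5-day groups again 3 vehicle and 4 treated tumours, and 3 wild-type bladders had neither BBN nor treatment. Replicate numbers below only follow the order in which the samples of a group are listed, and pair no samples across groups. Age, sex, strain, doses and whether each sample was a separate animal are not stated in the labels, so p-values reflect only the variation among the samples at hand, which may be technical. Cultured cells of BBN963, a mouse basal bladder cancer line, made up the other 45 of the 62 samples, and 40 of them were analysed here. The tissue is labelled as basal bladder cancer urothelial cells, yet markers of leukocytes, fibroblasts, smooth muscle and endothelium were present in every tissue group, so values describe whole tissue. Depth was estimated per sample by taking its most frequent low value as a single read. The estimate is approximate, because normalisation factors differ by gene. Depth came to 72.8 to 77.1 M reads (M, mega) in 1-month vehicle tumours, 45.5 to 64.3 M in 1-month treated tumours and 53.8 to 76.1 M in bladders without BBN. At 5 days it was 32.7 to 72.4 M in vehicle and 17.4 to 22.9 M in treated tumours, so that depth and treatment cannot be told apart at either time. In bulk tissue, fewer mast cells and less RNA per mast cell cannot be told apart.

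Mast cells are tissue-resident granulocytes that store serine proteases, histamine and proteoglycan in granules and release them when antigen cross-links IgE on their surface. In mice, mucosal mast cells are known for the chymases Mcpt1 and Mcpt2, and connective tissue mast cells for Mcpt4, Cma1, tryptase and Cpa3. The IgE receptor combines an alpha chain that binds IgE (Fcer1a), a beta chain that amplifies the signal (Ms4a2) and a gamma chain that many leukocytes share (Fcer1g).

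The 5 chymase genes lie close together on chromosome 14 of GRCm38, in the order Cma1 (55941451 to 55944675), Cma2 (55950980 to 55974031), Mcpt1 (56017971 to 56020384), Mcpt2 (56042041 to 56044642) and Mcpt4 (56059629 to 56062313), all protein-coding in GENCODE M21. Tpsab1 (25343245 to 25345562) and Tpsb2 (25366305 to 25369098) are neighbours on chromosome 17. Cpa3 is on chromosome 3 (20215620 to 20242181), Fcer1a on chromosome 1 (173221284 to 173227214) and Ms4a2 on chromosome 19 (11615523 to 11623719). Near-identical copies limit some values, because reads are divided among matching transcripts. Cma2 shared 51.03% of its 31-base words with other genes, most with Mcpt9, so its values are uncertain. Mcpt4 shared 12.15%, Cma1 10.57%, Mcpt1 6.71%, Mcpt2 5.14% and Ms4a2 3.96% of such words with other genes, and the remaining members at most 0.56%.

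The sequences just upstream of 4 members are shown, since Mcpt1 and Mcpt4 are close copies of 1 locus, and Cpa3 and Fcer1a are unrelated genes whose values moved with them. Each line gives the 250 bases before the RefSeq transcript start on GRCm38.p6, 5′ to 3′ on the gene's strand, with matches to the letters TGATAA, the letters AGATAA or the letters TATAAA on either strand in capitals (TTATCT marks a reverse-strand match of the second motif, TTTATA one of the third). TGATAA and AGATAA are forms of the motif of GATA factors, which are known regulators of mast cell genes, and TATAAA is the TATA box.
Mcpt1: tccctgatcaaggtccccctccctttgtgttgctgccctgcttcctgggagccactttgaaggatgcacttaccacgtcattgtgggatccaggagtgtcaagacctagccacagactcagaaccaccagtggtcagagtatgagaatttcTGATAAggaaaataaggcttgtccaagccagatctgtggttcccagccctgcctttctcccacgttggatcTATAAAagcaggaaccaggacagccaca
Mcpt4: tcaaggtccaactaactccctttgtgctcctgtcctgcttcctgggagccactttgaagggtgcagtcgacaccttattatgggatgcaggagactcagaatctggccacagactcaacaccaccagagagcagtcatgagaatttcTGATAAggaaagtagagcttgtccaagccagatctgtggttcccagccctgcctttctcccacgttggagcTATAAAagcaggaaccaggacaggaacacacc
Cpa3: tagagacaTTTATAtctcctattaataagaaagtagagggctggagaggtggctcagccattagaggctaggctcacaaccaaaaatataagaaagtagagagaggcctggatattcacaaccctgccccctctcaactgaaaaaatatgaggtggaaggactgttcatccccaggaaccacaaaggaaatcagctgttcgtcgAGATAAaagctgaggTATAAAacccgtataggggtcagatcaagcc
Fcer1a: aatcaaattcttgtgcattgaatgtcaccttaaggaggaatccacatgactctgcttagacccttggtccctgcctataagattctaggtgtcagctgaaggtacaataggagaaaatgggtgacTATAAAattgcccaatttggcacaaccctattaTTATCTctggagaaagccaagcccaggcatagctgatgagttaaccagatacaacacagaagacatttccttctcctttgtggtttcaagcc
The windows are chr14:56017714-56017963 (plus strand) for Mcpt1, chr14:56062311-56062560 (minus strand) for Mcpt4, chr3:20242182-20242431 (minus strand) for Cpa3 and chr1:173227230-173227479 (minus strand) for Fcer1a. Mcpt1 and Mcpt4 were identical at 213 of 250 aligned bases (85.2%), and both held TGATAA (at -99 and -103 from the start) and TATAAA (at -28 and -32). Cpa3 held AGATAA at -46 beside TATAAA at -31, and Fcer1a held TATAAA at -125 and AGATAA on the reverse strand at -92. RefSeq windows were matched for 6 of the 10 members. TGATAA or AGATAA was in 5 of these 6, all but Cma1, against 16.6% of 32851 upstream windows of the same length, and TATAAA was in 4 of 6, against 12.4%. A match of letters is a description of the window and shows no binding.

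In tumours of vehicle-treated mice at 1 month, Mcpt1 and Mcpt2 transcripts were present at 368 and 508 times their mean level in bladders without BBN (207 and 275 times without vehicle replicate 2). After 1 month of rosiglitazone and trametinib, every member lay below every vehicle tumour. Mcpt1, a mucosal chymase, had 22207, 64350 and 16413 normalised counts in the 3 vehicle tumours, 4958, 567, 4.75 and 39.8 in the 4 treated tumours, and 58.4, 79.7 and 142 in the 3 bladders without BBN. The treated tumours thus ran from well above the bladders without BBN (replicates 1 and 2) to below them (replicates 3 and 4). Mcpt2, the other mucosal chymase, had 10928, 35211 and 8916 normalised counts in vehicle tumours, 2388, 260, 26.6 and 26.8 in treated tumours, and 18.7, 25.8 and 63.7 without BBN. Vehicle replicate 2 was the highest and treated replicate 1 the highest of its group for both genes. On the log2(normalised count + 1) scale the limma difference of vehicle from no-BBN was 8.34 ± 1.96 (SE) for Mcpt1 and 8.86 ± 1.47 for Mcpt2, and that of treated from vehicle was -7.48 ± 1.83 and -6.67 ± 1.38.

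The connective tissue chymases were already abundant in bladder without BBN. Mcpt4 had 1507, 2863 and 523 normalised counts in vehicle tumours, 340, 33.9, 43.6 and 21.9 in treated tumours, and 77.5, 736 and 1014 without BBN. Cma1, the mouse alpha-chymase gene, had 865, 3019 and 487 normalised counts in vehicle tumours, 232, 158, 58.0 and 112 in treated tumours, and 184, 1228 and 1443 without BBN. For both genes vehicle tumours and bladders without BBN overlapped, and the treated tumours were below the vehicle tumours. Bladder replicate 1 without BBN was the lowest of its group for Mcpt4 and Cma1, as it was for Tpsb2 and Cpa3. The difference of vehicle from no-BBN was 1.76 ± 1.17 for Mcpt4 and 0.65 ± 0.88 for Cma1 (log2, SE), and that of treated from vehicle was -4.47 ± 1.10 and -3.11 ± 0.82. Cma1's difference from no-BBN lay between -0.30 and 1.23 when any 1 sample was left out, so its sign rests on single samples.

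Cma2, a further chymase gene of the cluster, followed the mucosal chymases, within the limit set by its shared sequence. It had 784, 2037 and 506 normalised counts in vehicle tumours, 170, 28.8, 0 and 14.5 in treated tumours, and 0, 0 and 13.1 without BBN. All vehicle tumours were above all samples of both other groups.

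The tryptases cleave after basic residues and are stored with heparin in the granule. Tpsb2 had 1210, 3740 and 497 normalised counts in vehicle tumours, 150, 103, 72.0 and 39.3 in treated tumours, and 176, 1238 and 1647 without BBN. Its treated tumours were below every sample of both other groups, and vehicle overlapped with no-BBN. Tpsab1 had 770, 8109 and 372 normalised counts in vehicle tumours, 117, 7.51, 0 and 36.6 in treated tumours, and 66.6, 118 and 69.9 without BBN. Here the vehicle tumours were above all bladders without BBN, and vehicle replicate 2 stood far above the other two. Treated differed from vehicle by -3.99 ± 0.87 for Tpsb2 and -6.57 ± 1.5 for Tpsab1 (log2, SE).

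Cpa3, the granule carboxypeptidase, had 3309, 8268 and 1502 normalised counts in vehicle tumours, 494, 351, 57.6 and 16.2 in treated tumours, and 108, 1211 and 1455 without BBN. The vehicle tumours were above all samples of the other groups, by a small margin over the highest bladder without BBN. The IgE-binding chain Fcer1a had 1501, 4768 and 1141 normalised counts in vehicle tumours, 268, 56.1, 0.941 and 6.32 in treated tumours, and 25.7, 70.5 and 161 without BBN. Ms4a2, the beta chain, had 244, 1462 and 411 normalised counts in vehicle tumours, 184, 28.7, 20.9 and 52.8 in treated tumours, and 26.8, 65.7 and 58.3 without BBN. Both receptor chains were thus highest in vehicle tumours, with treated replicate 1 the highest treated sample. Treated differed from vehicle by -4.91 ± 1.26 for Cpa3, -6.54 ± 1.45 for Fcer1a and -3.39 ± 0.80 for Ms4a2 (log2, SE).

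**Figure D1:**
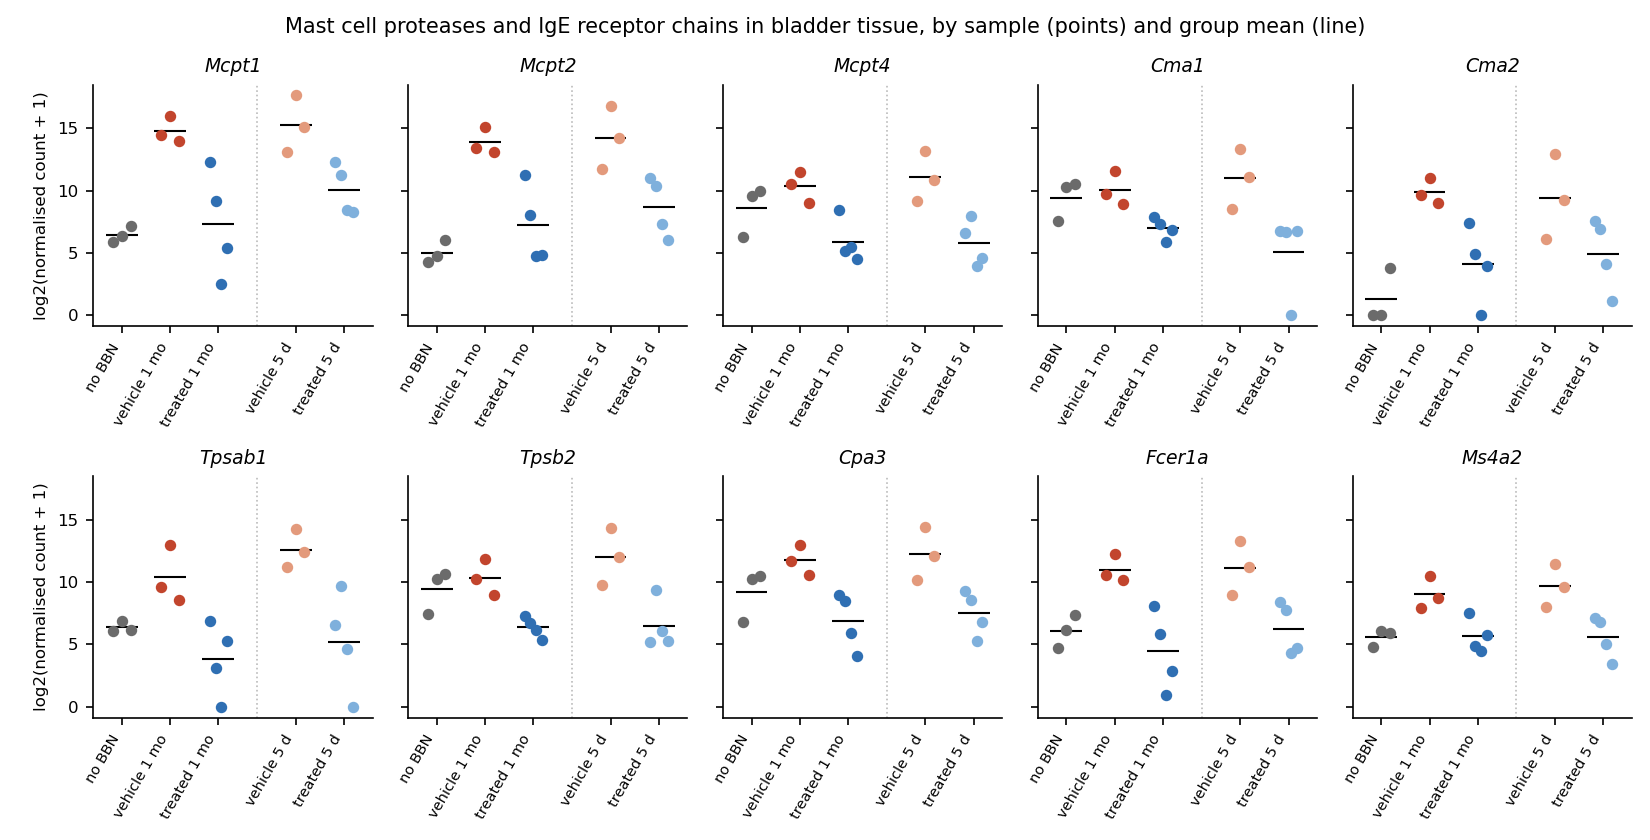
Each panel plots 1 gene as log2(normalised count + 1) on the y axis for every tissue sample (points) with the group mean (line); groups left of the dotted line come from the 1-month table, those right of it from the 5-day table, which was normalised separately. Mcpt1 and Mcpt2 stand at 13 to 16 in 1-month vehicle tumours, and Cma1, Tpsb2, Mcpt4 and Cpa3 already reach about 10 without BBN.

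Counted over the 10 members, 7 had every vehicle tumour above every bladder without BBN, a pattern that 22.4% of all 18762 genes tested also showed, and Mcpt4, Cma1 and Tpsb2 overlapped. The ratio of group means was 508 for Mcpt2, 368 for Mcpt1, 254 for Cma2, 36.3 for Tpsab1, 28.9 for Fcer1a, 14 for Ms4a2, 4.71 for Cpa3, 2.68 for Mcpt4, 1.78 for Tpsb2 and 1.53 for Cma1. Vehicle replicate 2 carried much of these means: without it the ratio was 275 for Mcpt2, 207 for Mcpt1, 148 for Cma2, 15.4 for Fcer1a, 6.72 for Tpsab1, 6.51 for Ms4a2, 2.60 for Cpa3 and 1.67 for Mcpt4, and it turned below 1 for Tpsb2 (0.836) and Cma1 (0.71). Leaving out single bladders without BBN moved the ratio of Mcpt2 to 824 and of Fcer1a to 51.4 (replicate 3), and of Cma2 to 169 (replicate 1 or 2). Without replicate 3 no ratio of Cma2 could be formed, because the other bladders without BBN were at 0. Its ratios thus rest on 13.1 normalised counts in a single bladder. For treated against vehicle tumours, 10 of 10 members had every treated tumour below every vehicle tumour, against 17.1% of all genes tested. Since these values chose the members, nothing is read from either count. The ratio of vehicle to treated means ran from 9.87 for Ms4a2 to 76.4 for Tpsab1. Without vehicle replicate 2 it ran from 4.58 for Ms4a2 to 16.0 for Fcer1a, with Tpsab1 at 14.1, and without treated replicate 1 from 13.3 for Cma1 to 209.7 for Tpsab1. The authors' deposited table gave 1-month log2 fold changes of treated over vehicle from -3.30 (Ms4a2) to -6.26 (Tpsab1) for the same 10 genes. Against bladders without BBN, treated tumours overlapped for 9 members and were all lower for Tpsb2 (11.7% of all genes tested were all lower). These differences were 2.8 ± 1.56 for Cma2, 2.2 ± 1.38 for Mcpt2 and 0.86 ± 1.83 for Mcpt1, and -3.11 ± 0.87 for Tpsb2, -2.72 ± 1.10 for Mcpt4 and -2.46 ± 0.82 for Cma1 (log2, SE). None of these was tested, and the Mcpt1 value rests on single samples: it lay between -0.79 and 2.46 when any 1 was left out, with treated replicates 3 and 4 below every bladder without BBN. The comparisons share samples: both that involve vehicle tumours use the same 3, and both that involve treated tumours the same 4.

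**Figure D2:**
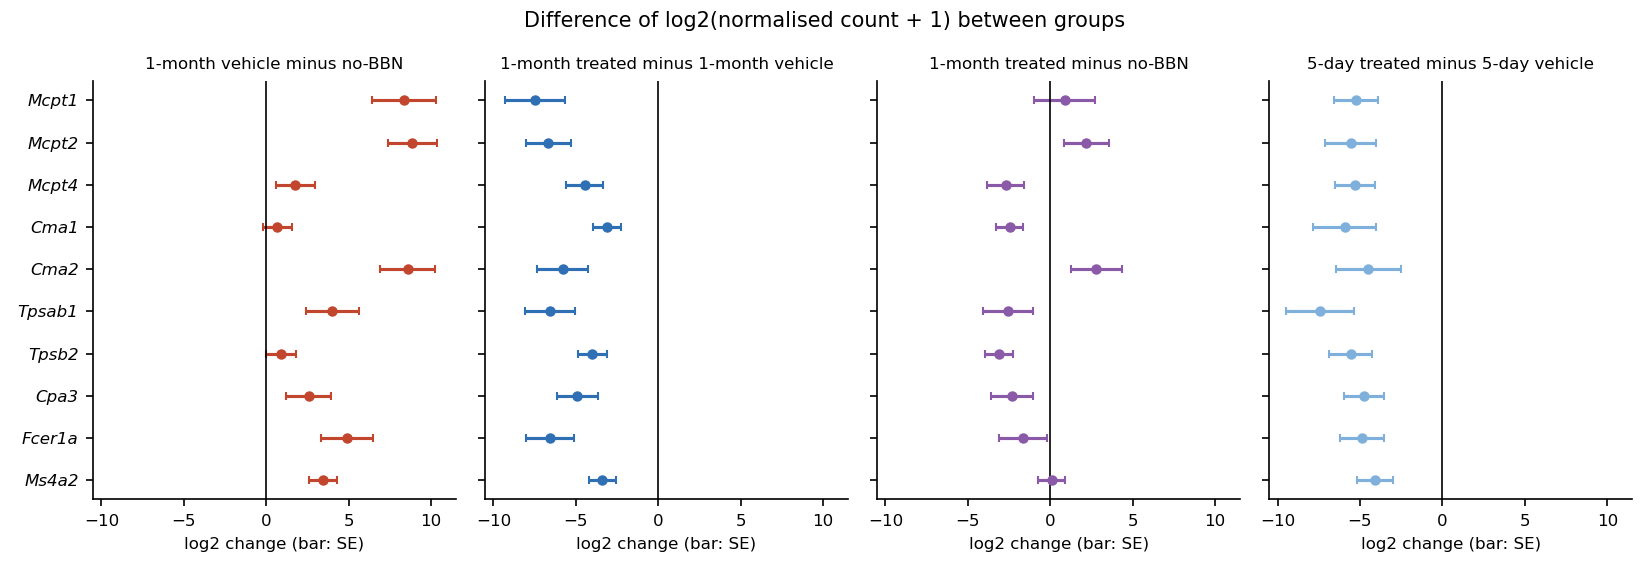
Points show the difference between group means of log2(normalised count + 1) for each gene, with SE bars, in the 3 comparisons of the 1-month table and in the 5-day comparison. Vehicle minus no-BBN ranges from 0.65 (Cma1) to 8.86 (Mcpt2), treated minus vehicle is below 0 for all 10 genes at both times, and treated minus no-BBN lies on both sides of 0.

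Levels per kilobase of the longest transcript ranked the members differently with and without a tumour. In bladders without BBN the highest medians were those of Cma1 (1126 normalised counts per kb), Tpsb2 (961), Cpa3 (836) and Mcpt4 (664). These 4 overlapped in their ranges. Mcpt1 came after them with a median of 78.6 and a range of 57.6 to 140 per kb, which overlapped with all of them but Cma1, followed by Fcer1a at 70.6, Tpsab1 at 36.3, Ms4a2 at 24.4, Mcpt2 at 24.3 and Cma2 at 0, each overlapping with its neighbour except Tpsab1 with Ms4a2 and Mcpt2 with Cma2. In 1-month vehicle tumours Mcpt1 was first with 21900 per kb and Mcpt2 second with 10300, with overlapping ranges and every sample ahead of Cpa3, whose median was 2283. At 5 days Mcpt1 (34704 per kb) and Mcpt2 (18004) again led the vehicle tumours, ahead of Tpsb2 (3130) and Cpa3 (2961), whose ranges overlapped.

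The ratio of Mcpt1 to Cpa3 sets a mucosal chymase against the granule carboxypeptidase. It was 6.71, 7.78 and 10.9 in 1-month vehicle tumours, and 0.539, 0.0658 and 0.0974 in bladders without BBN. In 1-month treated tumours it was 10.03, 1.62, 0.0824 and 2.46, spanning the range between these groups. At 5 days it was 7.32, 9.33 and 8.20 in vehicle tumours and 7.73, 6.59, 8.94 and 2.87 in treated tumours, which overlapped. Mcpt1 and Mcpt2 together made up 74.4% to 82.3% of the members' summed normalised counts in 1-month vehicle tumours, 2.21% to 10.4% without BBN and 11% to 79.0% in 1-month treated tumours. At 5 days the share was 65.9% to 75.9% in vehicle and 54.4% to 81.3% in treated tumours.

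**Figure D3:**
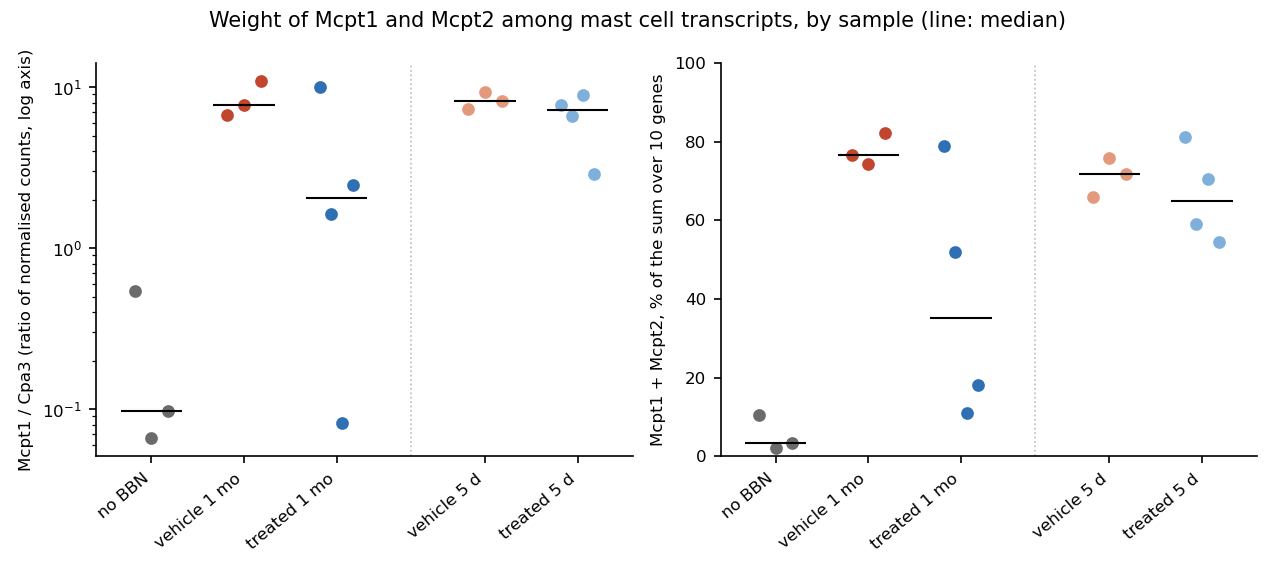
The left panel plots the ratio of Mcpt1 to Cpa3 normalised counts per sample on a log axis, the right panel the share of Mcpt1 plus Mcpt2 in the sum over the 10 genes, in percent; points are samples and lines medians. Vehicle tumours at both times stand near 7 to 11 on the left, bladders without BBN below 1. Treated tumours run from 0.0824 to 10.03 at 1 month and from 2.87 to 8.94 at 5 days.

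At 5 days the same 10 genes were measured in other tumours, and these values were tested. The members were chosen with earlier results of these data known, so the p-values are no independent evidence. Mcpt4 had 584, 9174 and 1831 normalised counts in vehicle tumours and 97.1, 243, 14.4 and 22.6 in treated tumours. It fell by 5.30 ± 1.21 on the log2 scale (SE; limma, Benjamini-Hochberg adjusted p = 0.0468) and was the only member called, against 5.48% of all 16891 genes tested that were called lower. The call was not firm: with no filter on low values the adjusted p was 0.0506, and over the samples left out in turn it ran from 0.0358 to 0.128. It passed 0.05 only without treated replicate 2 (0.0358) and missed it without vehicle replicate 1 (0.0611), 2 (0.0944) or 3 (0.128) and without treated replicate 1 (0.0879), 3 (0.108) or 4 (0.0908). Without treated replicate 2 the adjusted p was also 0.0379 for Tpsab1 and 0.0237 for Tpsb2, which gave 3 members called.

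Mcpt1 had 8539, 203695 and 35190 normalised counts in the 5-day vehicle tumours and 4920, 2479, 337 and 307 in the treated ones. Mcpt2 had 3326, 115592 and 19102 normalised counts in vehicle and 2112, 1287, 161 and 64.4 in treated tumours. In both genes the lowest vehicle tumour (vehicle replicate 1) was close to the highest treated tumour (treated replicate 1, not paired with it). Their differences were -5.21 ± 1.34 (adjusted p = 0.0675, limma) and -5.56 ± 1.54 (0.0834). Cma1 had 363, 10222 and 2182 normalised counts in vehicle and 107, 100, 0 and 108 in treated tumours, a difference of -5.93 ± 1.90 (0.120). Cma2 had 67.9, 7632 and 614 normalised counts in vehicle and 183, 118, 16.5 and 1.24 in treated tumours, a difference of -4.49 ± 1.96 (0.232), and was the only member whose groups overlapped.

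The tryptases and Cpa3 showed the same order of vehicle samples at 5 days, with replicate 2 highest and replicate 1 lowest. Tpsb2 had 884, 20255 and 4035 normalised counts in vehicle and 35.2, 652, 65.4 and 38.4 in treated tumours, a difference of -5.55 ± 1.31 (adjusted p = 0.0522, limma). Tpsab1 had 2323, 19713 and 5349 normalised counts in vehicle and 92.0, 800, 24.1 and 0 in treated tumours, a difference of -7.40 ± 2.06 (0.0840). Treated replicate 2 was the highest treated tumour for both tryptases, and no groups overlapped. Cpa3 had 1167, 21827 and 4291 normalised counts in vehicle and 637, 376, 37.7 and 107 in treated tumours, a difference of -4.75 ± 1.22 (0.0679).

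Of the receptor chains, Fcer1a had 505, 10039 and 2332 normalised counts in 5-day vehicle and 332, 215, 18.2 and 24.8 in treated tumours, a difference of -4.88 ± 1.34 (adjusted p = 0.0804, limma). Ms4a2 had 250, 2754 and 766 normalised counts in vehicle and 134, 111, 31.5 and 9.73 in treated tumours, a difference of -4.08 ± 1.10 (0.0767). Over all members, 9 of 10 had every treated tumour below every vehicle tumour, against 13% of the genes tested. The ratio of vehicle to treated means ran from 17.6 for Ms4a2 to 54.0 for Cma1. Without vehicle replicate 2 it ran from 4.28 for Cma2 to 16.8 for Tpsab1, with Cma1 at 16.1. Without treated replicate 1 it was 79.2 for Mcpt1 and 91.3 for Mcpt2, and without treated replicate 2 it was 236 for Tpsab1, 181 for Tpsb2 and 86.4 for Mcpt4. The median log2 difference over the 10 was -5.26 beside 0.04 over all genes tested. All 10 differences were below 0 in every alternative run. The members were chosen with earlier results of these data known and varied together. Their count, median and shared sign at 5 days are thus a description and no independent evidence. In the authors' deposited table, made with DESeq2, the 10 log2 fold changes at 5 days ran from -4.14 (Ms4a2) to -5.76 (Cma1), with adjusted p-values from 1.08e-05 (Mcpt4) to 0.0453 (Tpsab1). Whether the members' differences at 1 month and 5 days differ was not tested.

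Members varied together from sample to sample. Pearson's r of each member with the mean of the other 9, on standardised log2 values, was 0.793 (Cma2) to 0.978 (Fcer1a) over the 10 samples of the 1-month table. Over the 7 samples of the 5-day table it was 0.848 (Cma1) to 0.992 (Mcpt1 and Fcer1a). Samples of a group share their condition and each library its depth, so these are descriptions. The sum over the 10 members was 30769 to 133828 normalised counts in 1-month vehicle tumours, 284 to 9302 in 1-month treated tumours and 742 to 6066 without BBN. At 5 days it was 18007 to 420903 in vehicle and 683 to 8650 in treated tumours.

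Genes known from mast cells but not among the members were taken from a list of 30 identity and granule genes, of which 28 were tested. In 1-month vehicle tumours 16 were called higher than without BBN and 3 lower (15% and 11.4% of all genes), with a median log2 difference of 1.25 beside -0.02 over all genes tested. The stem cell factor receptor Kit rose by 2.55 ± 0.54 (SE; limma, adjusted p = 0.00688), from 384 to 998 normalised counts without BBN to 2902 to 4940 in vehicle tumours. Hdc, which makes histamine, rose by 4.12 ± 0.97 (0.0115), and Tph1, which starts serotonin synthesis, by 4.99 ± 0.69 (0.000715). Srgn, the proteoglycan core that holds granule proteases, rose by 4.20 ± 0.59 (0.00086), and Il1rl1, the receptor of IL-33, by 2.94 ± 0.35 (0.000298). The cytokine receptor chain Csf2rb had the lowest adjusted p of the list, rising by 2.83 ± 0.27 (0.000122). The 3 called lower were Gata2, a transcription factor also active in other cells (-1.75 ± 0.22), Cd200r3 (-1.64 ± 0.24) and Rab27b, a vesicle GTPase (-1.55 ± 0.26).

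After 1 month of treatment 16 of these 28 genes were called lower than in vehicle tumours and 3 higher (13.7% and 10.1% of all genes), with a median of -1.34. Kit fell by 2.51 ± 0.51 (adjusted p = 0.00664, limma), Hdc fell by 3.64 ± 0.91 (0.0169), Tph1 fell by 4.6 ± 0.64 (0.00101) and Srgn fell by 3.70 ± 0.55 (0.00148). The genes of leukotriene and prostaglandin synthesis Alox5ap (-3.59 ± 0.31) and Hpgds (-2.05 ± 0.39) fell as well, as did Fcgr3, an IgG receptor (-4.18 ± 0.50), Il1rl1 (-3.04 ± 0.32), Csf2rb (-2.37 ± 0.25) and the granule membrane protein Cd63 (-0.71 ± 0.11). Gata2 (1.04 ± 0.20), Cd200r3 (1.07 ± 0.23) and Rab27b (1.19 ± 0.24) rose. Mrgprb2, a receptor known from connective tissue mast cells, had been called higher in vehicle tumours than without BBN, by 3.93 ± 1.11 (0.0251), and was not called with treatment: it differed by -0.93 ± 1.04 (0.555) at 1 month, with a median of 254 normalised counts in vehicle and 218 in treated tumours, and by -0.43 ± 1.22 (0.879) at 5 days. Hdc, Srgn, Csf2rb, Lilrb4a and Fcgr3 are also known from other leukocytes. At 5 days 28 listed genes were again tested (Hrh4 in place of Mrgprb1), of which 11 were called lower and none higher, against 5.48% and 0.699% of all genes, with a median of -2.41. Hdc fell by 5.68 ± 0.56 (0.00264), from 22022 to 36851 normalised counts in vehicle to 319 to 1508 in treated tumours, and Srgn fell by 3.81 ± 0.27 (0.000828). Lilrb4a, an inhibitory receptor (-4.29 ± 0.26), Csf2rb (-3.52 ± 0.38), Hpgds (-2.72 ± 0.25) and Cd63 (-1.66 ± 0.20) fell too. Kit fell by 2.14 ± 0.47 (0.0424) at 5 days, while Tph1 differed by -4.75 ± 1.41 without passing the test (0.100). The 5-day count was 6 without vehicle replicate 1 and 7 without vehicle replicate 3. None of the 28 was called by limma between 1-month treated tumours and bladders without BBN, where 753 of all genes (4.01%) were called; at an unadjusted p under 0.05, 1 of the 28 was higher and 6 were lower.

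**Figure D4:**
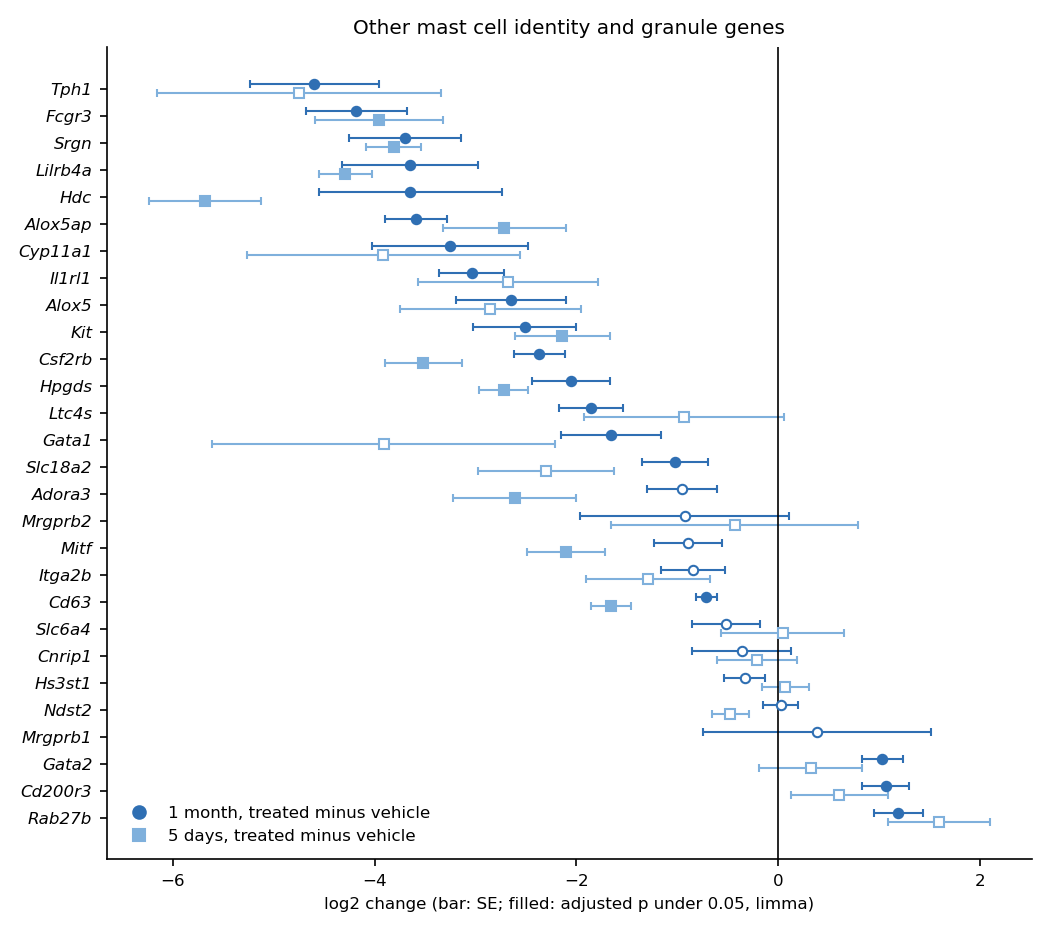
Points give the log2 difference of treated from vehicle tumours with SE for the listed mast cell identity and granule genes tested at 1 month, circles at 1 month and squares at 5 days, filled where the limma adjusted p was under 0.05. Most filled points lie left of 0, and Gata2, Cd200r3 and Rab27b are filled to the right of 0 at 1 month.

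The signalling genes downstream of the IgE receptor showed a similar count. Of 24 listed and tested, 18 were called higher and none lower in vehicle tumours than without BBN, with a median of 2.01 (15% and 11.4% of all genes), and 20 were called lower and none higher after 1 month of treatment, with a median of -2.13 (13.7% and 10.1%). The gamma chain Fcer1g had 17829 to 32051 normalised counts in 1-month vehicle tumours, 868 to 2989 in treated tumours and 2212 to 3215 without BBN. It rose by 3.19 ± 0.41 over no-BBN (adjusted p = 0.00054, limma) and fell by 4.16 ± 0.39 with treatment (0.000183). The kinases Lyn (-2.29 ± 0.18) and Syk (-2.36 ± 0.39), the adaptor Lat2 (-2.93 ± 0.25), the phosphatase Ptpn6 (-2.23 ± 0.11), the adaptor Lcp2 (-3.17 ± 0.26), the exchange factor Vav1 (-2.39 ± 0.29) and the calcium channel Orai1 (-1.27 ± 0.14) also fell at 1 month. At 5 days 14 of 24 were called lower and none higher (5.48% and 0.699%), with Fcer1g at -3.8 ± 0.39 (0.00303) and Inpp5d, an inhibitory lipid phosphatase, at -2.17 ± 0.13 (0.00046), and Snap23, a fusion protein of granule release, at -2.05 ± 0.14 (0.000782). Without vehicle replicate 1 the 5-day count was 8. None was called by limma between treated tumours and no-BBN, where 2 were higher and 2 lower at an unadjusted p under 0.05. Macrophages, neutrophils and lymphocytes are also known to express many of these genes.

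Markers of those cells moved with the same groups. The 10 macrophage markers summed to 478925 to 565371 normalised counts in 1-month vehicle tumours, 36941 to 82645 in treated tumours and 92485 to 169042 without BBN. Neutrophil markers summed to 28843 to 837537, 1595 to 19734 and 1341 to 2087, and T and NK cell markers to 60984 to 108112, 3126 to 20000 and 1937 to 5533, in the same order of groups. The neutrophil sum of 837537 was that of vehicle replicate 2 alone, beside 32981 and 28843. That tumour also differed in fibroblast markers, with a sum of 87438 beside 577849 and 521708. After 1 month of treatment 4 of 10 neutrophil markers were called lower and none higher (13.7% and 10.1% of all genes). At 5 days neutrophil markers summed to 160524 to 312687 in vehicle and 1408 to 14968 in treated tumours, and all 10 were called lower. Of the 10 macrophage markers 6 were called lower and none higher at 5 days (5.48% and 0.699% of all genes), with a median of -2.83, such as Cd68 at -2.75 ± 0.40 (adjusted p = 0.00892, limma) and Cd14 at -4.56 ± 0.47 (0.00287). Their sum was 155956 to 529165 normalised counts in vehicle tumours, 28408 to 37878 in treated replicates 1 to 3 and 232522 in treated replicate 4. The summed T and NK cell markers overlapped at 5 days, with a median log2 difference of -0.15 over the 12 genes. The summed urothelial markers moved the other way, from 576521 to 771959 in 1-month vehicle to 908209 to 1115040 in treated tumours. The part of these shifts in the values of the members and of both lists was not tested.

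Fcer1a and Ms4a2 are also known from basophils, whose part in their values was not tested. Mcpt8, a basophil protease encoded beside Mcpt4, had 21.5 to 320 normalised counts in 1-month vehicle tumours. It had 0 to 29.9 in treated tumours and 0 to 28.1 without BBN. Vehicle differed from no-BBN by 4.49 ± 1.53 (SE; adjusted p = 0.0534, limma) and treated from vehicle by -3.96 ± 1.43 (0.0703), neither of them called. Prss34, another basophil protease, was listed at 0 in every 1-month vehicle tumour. Of 6 basophil markers tested at 1 month, 1 was called higher and 1 lower than without BBN (15% and 11.4% of all genes). With 1 month of treatment 1 was called higher, Cd200r3, and none lower (10.1% and 13.7%), with a median of -0.03. All listed basophil markers summed to 5992 to 9028 normalised counts in 1-month vehicle tumours, 8326 to 11827 in treated tumours and 11308 to 15017 without BBN. Their sums also overlapped at 5 days, with 1654 to 5449 in vehicle and 1867 to 3864 in treated tumours. At 5 days 2 of 7 were called lower (5.48% of all genes): Mcpt8 at -7.57 ± 1.05 (adjusted p = 0.00768, limma) and Prss34 at -5.28 ± 0.73 (0.00765). Mcpt8 had 233, 1734 and 198 normalised counts in 5-day vehicle tumours and 2.86, 5.98, 0 and 0 in treated ones. Prss34 had 21.9 to 92.7 normalised counts in vehicle tumours and 0 in all 4 treated ones. Both reached the filter value of 10 only in vehicle tumours. Being tested thus required them to be high there, and nothing is read from this count. Eosinophil markers were called higher in 4 of 8 cases and lower in 1 in vehicle tumours against no-BBN, lower in 4 of 8 after 1 month of treatment and lower in 2 of 7 after 5 days. Epx, the eosinophil peroxidase, had 0 to 258 normalised counts in 1-month vehicle tumours and 0 to 1235 in 5-day vehicle tumours, and was listed at 0 in every treated tumour and every bladder without BBN. The summed eosinophil markers overlapped, with 2597 to 2987 normalised counts in 1-month vehicle tumours, 1068 to 3026 in treated tumours and 2203 to 6602 without BBN. They overlapped at 5 days as well, with 1731 to 25011 in vehicle and 982 to 18498 in treated tumours. Genes of type 2 lymphocytes (ILC2 and Th2) were called higher in 4 of 9, lower in 4 of 9 and lower in 1 of 10 cases in the same comparisons. Beside these stand 15% of all genes called higher and 11.4% lower against no-BBN, 13.7% lower at 1 month and 5.48% lower at 5 days.

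Within the chromosome 14 locus, values changed from gene to gene. Mcpt9, which lies between Mcpt1 and Mcpt2, had 223 to 1019 normalised counts in 1-month vehicle tumours, 0 to 98.0 in treated tumours and 1.67 to 2.45 without BBN. It rose by 7.09 ± 1.65 over no-BBN (adjusted p = 0.0108, limma) and fell by 5.65 ± 1.55 with treatment (0.025), with the reservation that it shares sequence with Cma2. Of the granzymes at the other end of the locus, which cytotoxic lymphocytes are known to use, Gzmb rose by 5.08 ± 0.81 over no-BBN (0.00154) and fell by 2.65 ± 0.76 with 1 month of treatment (0.0294). Gzmg and Gzmn were listed at 0 in every tissue sample, as was the tryptase-cluster gene Prss28. Of 14 listed neighbours of the chymase and tryptase genes, 7 were tested at 1 month, with 4 called higher in vehicle tumours and 4 lower after treatment, and 6 at 5 days, with 3 called lower (15%, 13.7% and 5.48% of all genes). Apart from Mcpt9 and Gzmb, those called were Gzmc (6.62 ± 1.08) and Gzmd (4.55 ± 0.79) above no-BBN, Gzmd (-4.55 ± 0.74) and the tryptase Tpsg1 (-4.07 ± 1.18) below vehicle at 1 month, and Mcpt8, Prss34 and Ctsg (-5.57 ± 1.24), a protease of neutrophils and mast cells, at 5 days. Gzmd at 1 month and Mcpt8, Prss34 and Ctsg at 5 days reached the filter value of 10 only in vehicle tumours. Mcpt9 and Gzmc also needed vehicle tumours to pass the filter at 1 month. Being tested thus required high vehicle values, and nothing is read from the counts of called neighbours.

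**Figure D5:**
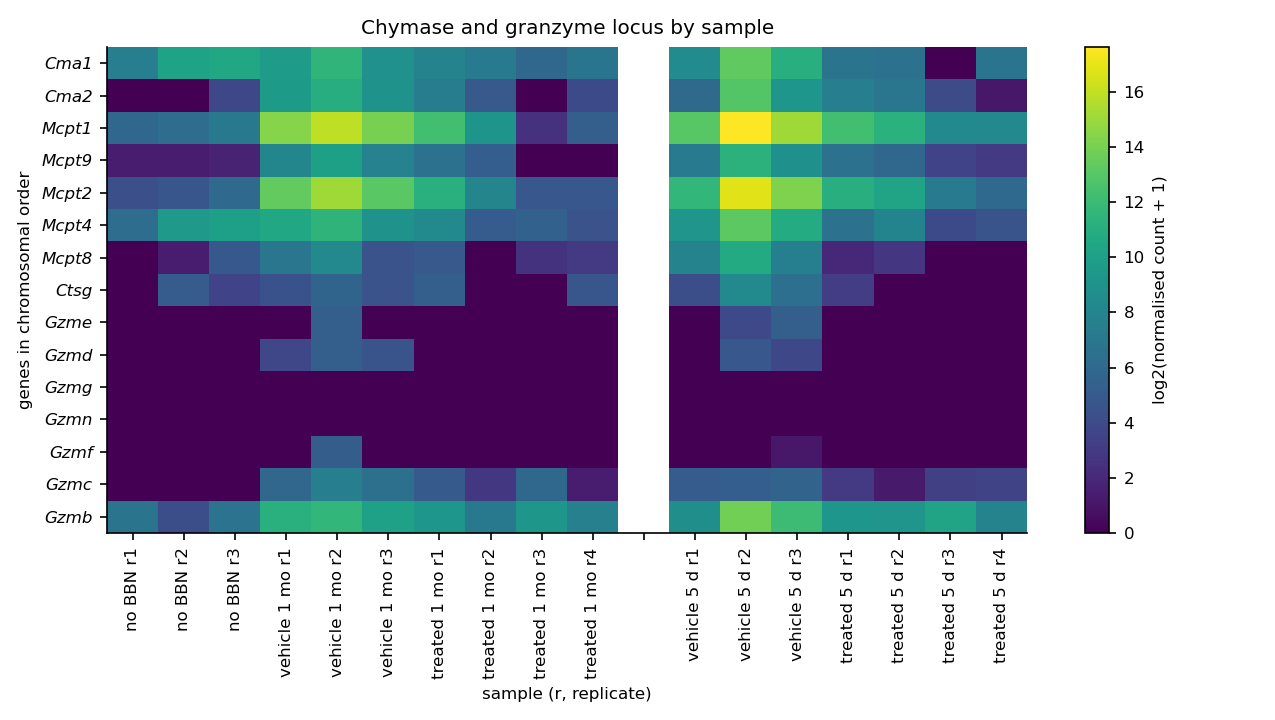
Rows are genes of the chymase and granzyme locus in chromosomal order, columns tissue samples, and colour is log2(normalised count + 1); the blank column divides the separately normalised 1-month and 5-day tables. Mcpt1 and Mcpt2 are the brightest rows in vehicle tumours, Cma1 and Mcpt4 are visible without BBN, and Gzmg and Gzmn are at 0 throughout.

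Genes of mast cell growth and homing were mixed. Of 19 tested, 9 were called higher and 1 lower in vehicle tumours than without BBN, and 1 higher and 5 lower after 1 month of treatment (15% and 11.4%, then 10.1% and 13.7% of all genes). Kitl, the ligand of Kit, was the gene called the other way: it fell by 0.75 ± 0.20 in vehicle tumours (adjusted p = 0.0214, limma) and rose by 1.08 ± 0.19 with treatment (0.00333). The integrin chains Itgb7 (-2.16 ± 0.29) and Itga4 (-2.39 ± 0.32), which guide mast cell progenitors to the intestinal mucosa of mice, fell with 1 month of treatment, as did the cytokine Il10 (-4.20 ± 0.80). Itgae, an integrin chain of mucosal lymphocytes and some mast cells, was higher in vehicle tumours than without BBN by 2.52 ± 0.62 (0.0137). Il33, the alarmin that acts on Il1rl1, rose by 1.64 ± 0.43 in vehicle tumours (0.0183). It was also called higher in 1-month treated tumours than without BBN, by 2.06 ± 0.40 (0.021). No other gene of this growth and homing list was called there, where 4.01% of all genes were called. Genes of other lists were called there too, among them 4 of 10 macrophage markers, all lower. At 5 days 3 of 18 were called lower (5.48% of all genes): Cxcr2, a chemokine receptor best known from neutrophils, at -6.07 ± 0.77 (0.00577), Tgfb1, which is known to induce Mcpt1 in cultured mouse mast cells, at -1.89 ± 0.17 (0.00207), and the chemokine Ccl2, at -3.07 ± 0.63 (0.0311).

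Cultured BBN963 cells, an epithelial line, held next to no reads of the members. In 27 of 40 cell samples all 10 were at 0, 4 members were at 0 in every sample, and the highest normalised count of any member was 2.47.

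The genes whose pattern over the 10 samples of the 1-month table was most like the members' mean standardised value were Cyp11a1 (Pearson's r = 0.956), Rnasek (0.955), Gab3 (0.949), Cnih4 (0.946) and Jak2 (0.940), followed by Ccndbp1, Hpcal1, Rock1, Atp6ap2 and Card19 at 0.929 to 0.938. Cyp11a1, the enzyme that starts steroid synthesis, is also on the mast cell identity list. At 5 days, in samples this ranking did not use, 2 of these 10 were called lower (5.48% of all genes), Jak2 at -1.52 ± 0.26 (adjusted p = 0.0172, limma) and Atp6ap2 at -0.85 ± 0.16 (0.0217), and none higher. Cyp11a1 differed by -3.91 ± 1.35 (0.144).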

How the data were processed

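Gene-level tables from poly-A RNA sequencing of tissue and cells were used. The signal values deposited by the authors are normalised counts, that is, estimated counts over factors from DESeq2 (per the file headers). The authors' own log2 fold changes and adjusted p-values, made with DESeq2 as the file headers say, are printed only where named. Per the submitters' processing notes, the tools were bcl2fastq 2.19, kallisto 0.44.0 and DESeq2, and GRCm38.p6 and mm10 are named as builds, without roles or settings. Normalisation factors differ by gene, so whole reads were not recovered and limma was used instead of a count test.

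From these values log2(value + 1) was computed, genes with a value of at least 10 in 3 samples were kept, and limma 3.58.1 (R 4.3.3, trend and robust) was fitted to each table, with all its groups, with Benjamini-Hochberg adjustment over all genes and calls at an adjusted p under 0.05. Fold changes of low genes are understated on this scale. The step was tested on simulated data. The members and gene lists were chosen with earlier results of these data known, so the 5-day tests and list counts are no independent evidence. Named genes are the members, list genes called in at least 1 comparison (up to 6 a list and comparison, by adjusted p) those listed at 0, and the 10 genes most like the members (1 list gene is not reported here); Kit, Cd200r3, Rab27b, Mrgprb1, Mrgprb2, Hrh4, Syk, Epx, Cd68, Cd14 and the basophil proteases were added after their values were seen. Alternatives were added constants of 0.5 and 4, no filter, quantile normalisation, fewer groups in the fit, the authors' table of the 1-month vehicle and treated samples alone, and each sample left out (for ratios of means, chosen after seeing the data). Tables were normalised separately and were never compared by level. The table of rosiglitazone alone in cells was not used, because some of its values stand beside another gene. Positions and transcripts are from GENCODE M21, upstream sequences from RefSeq (GRCm38.p6).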

Additional observations from a re-analysis of the deposited data

Results flagged for a closer look

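Within groups of 4 samples, single values that stood far from the other 3 were marked with Dixon's test at the 95% level (critical value 0.829), which marks some groups by chance alone. In 1-month treated tumours replicate 1 was far above the others in normalised counts for Mcpt1 (4957.66, next 567), Mcpt2 (2388.4, next 260), Mcpt4 (339.939, next 43.6) and Cma2 (170.361, next 28.8), 4 of the 10 members. In 5-day treated tumours replicate 2 was far above the others for Tpsab1 (799.622, next 92.0) and Tpsb2 (652.461, next 65.4), and replicate 3 was far below them for Cma1 (0, next 100), 3 of the 10 members. On the log2 scale used for the fits 0 members were marked at 1 month and 1 at 5 days.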

How the results depend on the processing

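No paired analysis was possible because the labels carry no replicate numbers. Of 570 alternative values of the members' 40 log2 differences, 561 kept direction and call or, where untested, moved by less than the spread between replicates. The rule for untested 1-month values was wide, and a change of sign could pass it. The 561 therefore say little about the 1-month differences. The other 9 were all tested 5-day values: 7 were the lost call of Mcpt4 and 2 the gained calls of Tpsab1 and Tpsb2. No 5-day difference was reversed. Leaving out 1 sample could turn the sign of untested 1-month differences. These were Cma1 (-0.30 to 1.23) and Tpsb2 (-0.12 to 1.58) vehicle minus no-BBN, and Mcpt1 (-0.79 to 2.46) and Ms4a2 (-0.55 to 0.47) treated minus no-BBN. Ratios of group means with each sample left out were added after seeing the data and moved most without vehicle replicate 2 or treated replicate 1 or 2. Counts of called genes over all genes moved more. With 1 sample left out, 3217 to 5191 genes were called in vehicle against no-BBN (4946 with all samples; lowest without no-BBN replicate 2), 3078 to 4737 in treated against vehicle at 1 month (4464), 136 to 1583 in treated against no-BBN (753) and 428 to 1001 at 5 days (1043). Treated against no-BBN moved by over 1.5 times without no-BBN replicate 2 (136) or 3 (160), treated replicate 2 (384) or 3 (470) and vehicle replicate 2 (1583). The 5-day count did so without vehicle replicate 1 (428) or 3 (531) and without treated replicate 1 (602) or 3 (589). At most 1 gene of the mast cell identity list or the IgE signalling list was called lower between treated and no-BBN in any alternative. Treated against no-BBN gave 1407 with only the compared groups in the fit. Quantile normalisation moved the split of higher to lower calls from 2816 and 2130 to 2386 and 2881 (vehicle against no-BBN), from 1889 and 2575 to 2695 and 2102 (treated against vehicle, 1 month) and from 118 and 925 to 249 and 785 (5 days), with the median of all genes at -0.15, 0.13 and 0.15. The cause of these shifts was not tested. The shallower 5-day treated libraries limit what can be seen of low genes there.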
